A study of Mus musculus with 6 samples.

Results

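The 10 genes described here encode the proteins that make microRNAs and use them to silence messenger RNAs: Drosha, Dgcr8, Xpo5, Dicer1, Tarbp2, Ago1, Ago2, Ago3, Ago4 and Tnrc6a. They were taken by symbol from a table of 52856 rows, and each of the 10 symbols matched 1 Ensembl gene ID. The RNA-seq libraries came from splenic CD4+ T cells of C57BL/6 mice aged 8 weeks, stimulated in culture for 48 hours with anti-CD3/28 antibodies. The 2 groups of 3 libraries were wild type (WT) and miPEP31-/- (KO), and mice of both shared strain, age, tissue and stimulation. The name miPEP31 stands for a small peptide read from the primary miR-31 transcript, and the design sets T cells that lack it against T cells that have it. The labels name no Cre driver or conditional allele, give only the genotype, and do not say how the mutant was made. Nothing in the labels says whether the 3 libraries of a group came from separate mice, so p-values measure the spread between these libraries, which may be technical.

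A microRNA gene is transcribed as a long primary transcript. In the nucleus the Microprocessor, made of the RNase III enzyme Drosha and the RNA-binding protein Dgcr8, cuts out a hairpin, and Exportin-5 (Xpo5) carries it to the cytoplasm. There Dicer1, with its partner Tarbp2, cuts the hairpin to a short duplex. An Argonaute protein keeps a single strand and uses its seed, the bases near the 5′ end, to find target messages. Of the mammalian Argonautes, Ago2 is the one known for cutting a fully paired target. Tnrc6a, also called GW182, joins Argonaute to the enzymes that remove the poly(A) tail and the cap. In T cells, Dicer1 and Drosha are known to be needed for regulatory T cell function, and Argonaute proteins are known to be lost after activation through the T cell receptor.

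Mature microRNAs of 2 loci are shown, from RefSeq on GRCm38.p6, because one locus is that of miPEP31 and the other lies in a Microprocessor gene. The first is the 5p microRNA of the locus that also encodes miPEP31, with its seed (bases 2 to 8) in capitals. The 3p strand of that locus is not printed, since only the 5p seed is searched for in the messages. The other pair, printed in the same way, comes from a hairpin inside Dgcr8. The mir-1306 hairpin (chromosome 16, 18284239 to 18284317, minus strand) lies within an exon of the coding transcript of Dgcr8 and overlaps its coding sequence. As background, the Microprocessor is known to cut hairpins in the Dgcr8 message, a feedback on its own subunit.
miR-31-5p (chromosome 4, 88910614 to 88910635, minus strand): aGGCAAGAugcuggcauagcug
miR-1306-5p: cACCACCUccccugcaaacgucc
miR-1306-3p: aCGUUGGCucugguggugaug
Mir31 and Mir1306 each had 0 counts in all 6 libraries, so the table gives no level for these microRNAs and no check of the genotype labels.

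Ago2 had the largest change of the 10 genes and was lower in the KO. Its mean level dropped from 532 to 341 CPM (counts-per-million values on library sizes scaled by TMM). Dicer1 fell and Tarbp2 rose, by 17.3% and 22.9% of their WT means. The other 7 genes did not pass the threshold (adjusted p under 0.05, edgeR quasi-likelihood test, Benjamini-Hochberg adjustment over all genes tested). All 10 passed the filter on low counts. Thus 3 of 10 were called, 1 higher and 2 lower, where 47.3% of all 14387 tested genes were called, 25.1% higher and 22.2% lower. The libraries of the groups did not overlap for 4 of the 10 genes, against 59.1% of all tested genes. The median log2 fold change of the 10 was -0.06 and their median absolute log2 fold change 0.20, against 0.01 and 0.34 over all tested genes. By these counts and medians, changes among the 10 genes were no more frequent or larger than in the rest of the table.

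**Figure D1:**
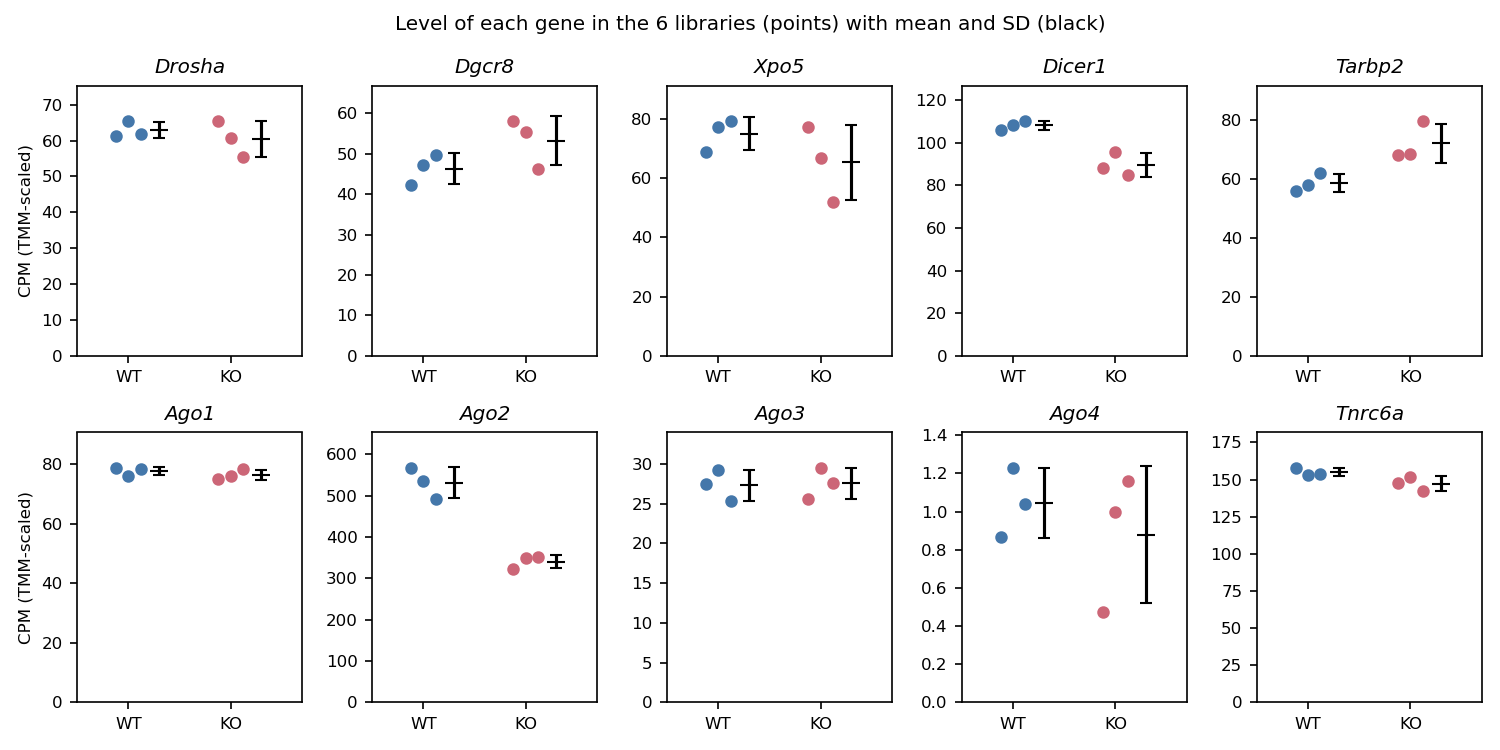
Level in TMM-scaled CPM (vertical axis, from 0) of each of the 10 genes in the 3 WT (blue) and 3 KO (red) libraries, with the mean and SD of each group in black. Ago2 and Dicer1 lie lower and Tarbp2 higher in all 3 KO libraries than in any WT library, and the KO libraries of Xpo5 spread from 52.0 to 77.2 CPM.

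The Microprocessor genes did not pass the test. Drosha (ENSMUSG00000022191, chromosome 15, 12824815 to 12935291, GRCm38, plus strand), the nuclear RNase III, stood at 61.4, 65.4 and 61.8 CPM in WT libraries 1 to 3 and at 65.4, 60.8 and 55.3 CPM in KO libraries 1 to 3. The groups overlapped. Its log2 fold change of KO over WT was -0.06 (95% interval -0.23 to 0.12, edgeR adjusted p = 0.572). Dgcr8 (ENSMUSG00000022718, chromosome 16, 18253948 to 18289246, minus strand), which recognises the hairpin, stood at 42.2, 47.1 and 49.6 CPM in WT and at 58.0, 55.3 and 46.3 CPM in KO. KO libraries 1 and 2 were above every WT library and KO library 3 was within the WT range. The log2 fold change was 0.20 (95% interval -0.03 to 0.43, edgeR adjusted p = 0.137). Without KO replicate 3 it was 0.28 and passed (edgeR adjusted p = 0.0210). Without WT replicate 1 and without KO replicate 1 it was 0.13 (edgeR adjusted p = 0.379 and 0.291). Exons of Dgcr8 share 825 bases with Trmt2a on the opposite strand, and without a stated strand setting the reads of the pair cannot be told apart there.

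The balance of the Microprocessor subunits was also compared within each library. The ratio of Drosha to Dgcr8, each taken as CPM per kb of annotated exons, was 1.89, 1.80 and 1.62 in WT and 1.46, 1.42 and 1.55 in KO. Every KO library was below every WT library. The mean went from 1.77 ± 0.139 to 1.48 ± 0.0639 (SD, n = 3 each), with an exact two-sided permutation p = 0.1, the smallest that 3 against 3 libraries allow. The ratio needs no scaling between libraries. Reads in the 825 bases that Dgcr8 shares with Trmt2a can affect the ratio, and their part was not tested. The whole Trmt2a gene had 1335 to 1644 counts in a library, and how many lay in the shared bases is not known.

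Of the genes for export and dicing, the 2 that act together in the cytoplasm moved in opposite directions. Dicer1 (ENSMUSG00000041415, chromosome 12, 104687742 to 104751952, minus strand), the enzyme that cuts the exported hairpin, stood at 106, 108 and 110 CPM in WT and at 88.3, 95.4 and 84.6 CPM in KO. All 3 KO libraries were lower than all 3 WT libraries. It fell by 0.27 on the log2 scale (SE 0.06, edgeR adjusted p = 0.00904), which is 17.3% of its WT mean. Tarbp2 (ENSMUSG00000023051, chromosome 15, 102518192 to 102523676, plus strand), the double-stranded RNA-binding partner of Dicer1, stood at 56.0, 58.0 and 62.0 CPM in WT and at 68.2, 68.5 and 79.7 CPM in KO. All 3 KO libraries were higher, and KO library 3 was the highest. It rose by 0.30 on the log2 scale (SE 0.08, edgeR adjusted p = 0.0171), or 22.9% of its WT mean. This call was lost without WT replicate 1 (log2 fold change 0.26, edgeR adjusted p = 0.0713) and without WT replicate 2 (0.28, adjusted p = 0.0677), and leaving out KO replicate 3 gave 0.21.

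Xpo5 (ENSMUSG00000067150, chromosome 17, 46202782 to 46243598, plus strand), the exporter of the hairpin, was the most variable of the well-expressed genes among the KO libraries. It stood at 68.7, 77.2 and 79.2 CPM in WT and at 77.2, 66.7 and 52.0 CPM in KO. KO library 1 lay within the WT range and the other two below it. Its SD was 7.43% of the mean in WT and 19.4% in KO. The log2 fold change of -0.20 did not pass (95% interval -0.51 to 0.11, edgeR adjusted p = 0.252). Without KO replicate 1 it was -0.34 and passed (edgeR adjusted p = 0.0353), and without KO replicate 3 it was -0.08.

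The Argonaute genes divided into Ago2, which fell, and the other three, which did not pass. Ago2 (ENSMUSG00000036698, chromosome 15, 73095844 to 73184935, minus strand) stood at 568, 535 and 493 CPM in WT and at 323, 349 and 351 CPM in KO. All 3 KO libraries lay below the lowest WT library. It fell by 0.64 on the log2 scale (SE 0.07, 95% interval -0.80 to -0.48, edgeR adjusted p = 2.51e-04), so the KO mean was 35.9% below the WT mean. Between 7489 and 13105 counts lay behind each Ago2 value. Ago2 shares 219 exonic bases with Chrac1 on the opposite strand, which had 739 to 870 counts.

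Ago1, Ago3 and Ago4 are neighbours on the minus strand of chromosome 4 and together span 201769 bases, with 5455 bases between Ago3 and Ago1 and 20957 between Ago1 and Ago4. Ago1 (ENSMUSG00000041530, 126435012 to 126468583) stood at 78.9, 76.1 and 78.3 CPM in WT and at 75.1, 76.2 and 78.3 CPM in KO. The groups overlapped and its SD was 1.92% of the mean in WT and 2.11% in KO. The log2 fold change was -0.02 (95% interval -0.15 to 0.10, edgeR adjusted p = 0.754). Ago3 (ENSMUSG00000028842, 126331704 to 126429556) stood at 27.4, 29.2 and 25.3 CPM in WT and at 25.6, 29.5 and 27.6 CPM in KO, with a log2 fold change of 0.01 (95% interval -0.19 to 0.22). The sign of the Ago1 and Ago3 values changed with the scaling of the libraries, so neither has a direction. Ago4 (ENSMUSG00000042500, 126489541 to 126533472) was near the floor of the table, with 20, 29 and 24 counts in WT and 11, 27 and 27 counts in KO. Its interval of -1.11 to 0.62 around a log2 fold change of -0.24 is too wide to show a change of the size seen for Ago2 at this depth.

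**Figure D2:**
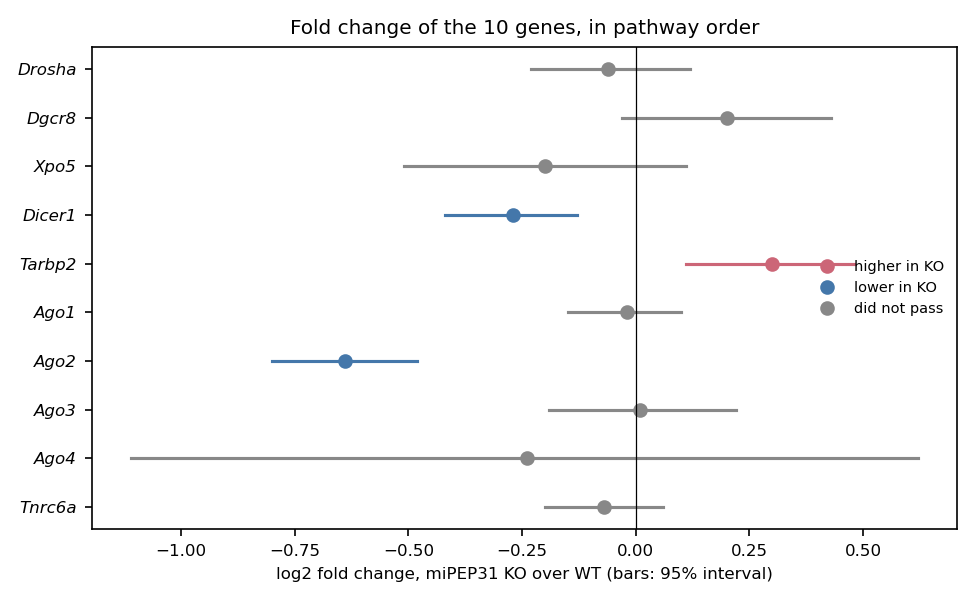
Log2 fold change of KO over WT (horizontal axis) with 95% interval for the 10 genes from top to bottom in the order in which they act. Ago2 at -0.64 lies farthest from 0, Dicer1 and Tarbp2 lie on opposite sides of it, and the interval of Ago4 runs from -1.11 to 0.62.

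The difference between Ago2 and its paralogs was looked at within each library, where scaling between libraries plays no part. The log2 ratio of Ago2 to Ago1 in CPM was 2.85, 2.81 and 2.66 in WT and 2.10, 2.20 and 2.17 in KO. The groups did not overlap, and the ratio was lower by 0.62 in the KO mean, which stood at 2.16 against 2.77. The ratio of Ago2 to Ago3 was lower by 0.65 without overlap, at 4.28 in WT and 3.63 in KO. The ratio of Ago2 to Ago4 overlapped between the groups, with log2 means of 9.0 in WT and 8.70 in KO. Of these 3 ratios, the first 2 had an exact two-sided permutation p = 0.1, the smallest possible here, and the third p = 0.500. Adjusted over the 3 they were 0.150, 0.150 and 0.500.

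Per kb of annotated exons, Ago2 gave most of the Argonaute message. Its share of the summed level of the 4 genes was 77.9%, 77.1% and 75.6% in WT and 67.9%, 68.7% and 68.6% in KO. The mean share was 76.9% ± 1.14 in WT and 68.4% ± 0.417 in KO (SD, n = 3 each, exact two-sided permutation p = 0.1, the smallest possible). The share of Ago1 was 19.5% ± 1.11 in WT and 26.5% ± 0.690 in KO, while Ago3 had 3.35% and 4.68% and Ago4 0.307% and 0.353%. The shares sum to the whole, so those of the other genes are not separate results. The summed level went from 49.3 ± 2.74 to 35.5 ± 1.43 CPM per kb, which is 27.9% lower (exact two-sided permutation p = 0.1). Reads can be shared between these paralogs, so how the authors' counting split such reads limits each level. In these bulk libraries fewer cells of a type and less RNA per cell cannot be told apart.

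**Figure D3:**
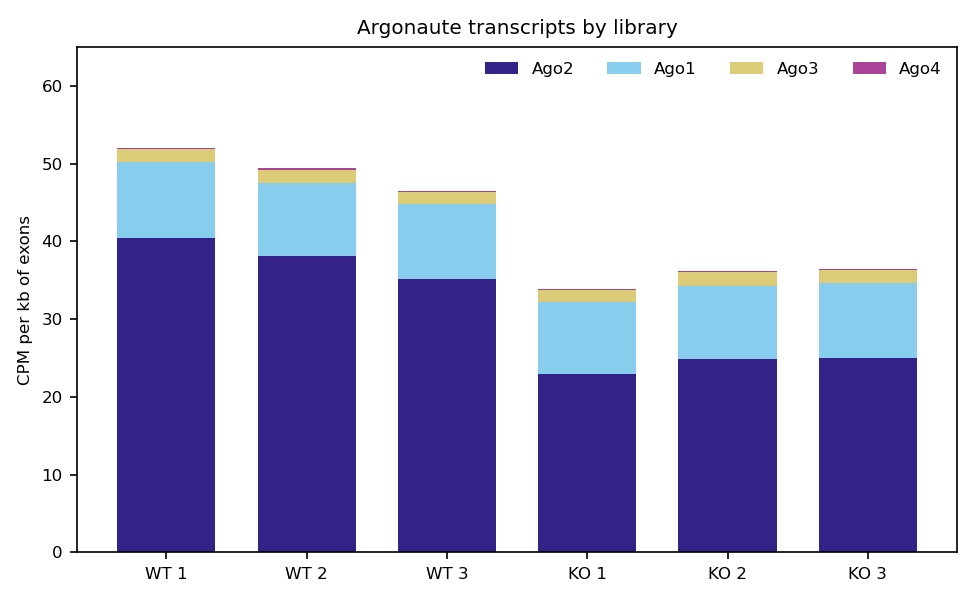
Summed level of the 4 Argonaute genes in CPM per kb of exons (vertical axis) in each of the 6 libraries, stacked by gene. The Ago2 part is smaller in all 3 KO libraries, and the Ago1 part, at 75.1 to 78.9 CPM before division by length, is of similar height in all 6.

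Tnrc6a (ENSMUSG00000052707, chromosome 7, 123123885 to 123195296, plus strand), the scaffold between Argonaute and the deadenylases, stood at 158, 153 and 154 CPM in WT and at 148, 152 and 142 CPM in KO. The libraries of the groups did not overlap, but the gap was small and the log2 fold change of -0.07 did not pass (95% interval -0.20 to 0.06, edgeR adjusted p = 0.314). Of its paralogs, Tnrc6b was lower at 80.7 against 91.0 CPM (log2 fold change -0.17, edgeR adjusted p = 0.0439), and this call was lost in 8 of 14 alternative settings (adjusted p 0.0590 to 0.145). Tnrc6c, chosen after its values were seen, had 53.2 CPM in WT and 56.0 CPM in KO and did not pass.

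In WT the order of the 10 genes by level per kb of exons was led by Ago2 at 37.9 ± 2.66 CPM per kb (SD, n = 3). Tarbp2 followed at 12.9 ± 0.674, Tnrc6a at 12.2 ± 0.195, Xpo5 at 10.9 ± 0.813, Drosha at 10.6 ± 0.372 and Ago1 at 9.58 ± 0.183 CPM per kb. Dicer1 at 6.45, Dgcr8 at 6.02, Ago3 at 1.65 and Ago4 at 0.150 CPM per kb were at the lower end. The library ranges of the neighbours Tarbp2 and Tnrc6a, Xpo5 and Drosha, and Dicer1 and Dgcr8 overlapped, so their order is not settled. Among all tested genes in WT, Ago2 stood at percentile 90.8 of the level per kb, and Ago4 at percentile 4.63. In KO, Ago2 was still first at 24.3 CPM per kb and Tarbp2 second at 15.9, and Dgcr8 at 6.91 stood above Dicer1 at 5.34 without overlap. The order depends on the length used. With the longest annotated transcript as length, Tarbp2 was above Ago2 in KO, at 26.4 against 24.7 CPM per kb.

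A message can also pair with the miR-31-5p seed printed above. The letters TCTTGCC were looked for on the message strand, using for each gene its longest 3′ UTR in the annotation. It was found once each in Xpo5, Dicer1 and Ago3, which is 3 of 10 genes, against 13.0% of 12022 tested genes with a 3′ UTR. The median 3′ UTR of the 10 genes was 3013 bases and that of all tested genes 1173 bases, so the shares are not at equal length. The match is in capitals, and the bases are from GENCODE M21 transcripts on GRCm38.
Xpo5 (chr17:46242893-46242921, plus strand): taaagtggacaTCTTGCCtttctctgatt
Dicer1 (chr12:104690955-104690983, minus strand): gcagagaggatTCTTGCCttaaaaggaag
Ago3 (chr4:126333187-126333215, minus strand): ctactcccagcTCTTGCCaaatactccta
The log2 fold changes of these genes were -0.20, -0.27 and 0.01. Ago2, whose 3′ UTR of 11064 bases is far longer than that of Dicer1 at 3851 bases, had no match. A match describes letters in the message and is not a shown target site.

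Most of the promoters were rich in CpG. The RefSeq table on GRCm38.p6 held windows of 250 bases before to 50 after the start for 9 of them (not Ago2), 10 windows in all. Their GC content ran from 44.7% in Tnrc6a to 83.3% in Ago4, with a median of 73.7%, against a median of 52.7% over all 32851 promoters. The number of CG pairs per window had a median of 37.5, against 7.0 over all promoters. Among the called genes, Dicer1 had 49 and Tarbp2 21 such pairs.

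The wider pathway was read from lists of 94 genes, of which 90 were tested, 15 rose and 21 fell. That is 40.0% called, against 47.3% of all tested genes, with a median log2 fold change of 0.02. Of the 36 called, 23 kept their call in all 14 alternative settings of the test and 13 lost it in at least 1. Over all tested genes the number called moved with the setting too, from 2723 to 4088 higher and from 2419 to 3594 lower. How many of all called genes kept their call throughout was not counted, so the loss is not shown to be particular to the pathway.

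Of the 90 tested pathway genes Adar changed most. Its enzyme edits adenosine in double-stranded RNA and can alter primary microRNAs. Adar stood at 89.8, 88.4 and 94.1 CPM in WT and at 282, 270 and 246 CPM in KO. No KO library came near the WT range, and Adar rose by 1.55 on the log2 scale (SE 0.07, edgeR adjusted p = 4.79e-06). Its exons share 1365 bases with Chrnb2 on the opposite strand, which had 85 to 199 counts. The paralog of Adar, Adarb1, chosen after its values were seen, went the other way, from 133 CPM in WT to 79.1 CPM in KO. Adarb1 fell by 0.75 on the log2 scale (SE 0.16, edgeR adjusted p = 0.00581). Among 18 nuclear partners of the Microprocessor 2 were higher and 6 lower (44.4% called, against 47.3% of all tested genes). Hnrnpa1, which binds some primary microRNAs, fell by 0.56 on the log2 scale (SE 0.05, edgeR adjusted p = 8.43e-05), and the RNA-binding protein gene Ewsr1 by 0.40 (SE 0.07, adjusted p = 0.00314). Mettl3, the enzyme that writes N6-methyladenosine, rose by 0.56 (SE 0.11), and it shares 933 exonic bases with Tox4 on the opposite strand.

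Among the 13 partners of Dicer and of Argonaute loading 2 were higher and 3 lower (38.5% called, against 47.3%). The chaperone gene Hspa8 went from 3132 ± 118 to 4565 ± 598 CPM (SD, n = 3 each), a rise of 0.54 on the log2 scale. Hsp90ab1, a chaperone used when Argonaute takes up the duplex, fell by 0.25 (SE 0.06). Its paralog Hsp90aa1, chosen after its values were seen, rose by 0.35 (SE 0.12, edgeR adjusted p = 0.0365). That call was lost in 6 of 14 settings. Aimp1 fell by 0.30 (SE 0.06) and Tsnax, which encodes a subunit of the C3PO nuclease, by 0.26 (SE 0.06). Of 15 genes for precursor tailing and turnover 12 were tested, 3 were higher and 2 lower (41.7% called, against 47.3%). The exonuclease gene Usb1 rose by 0.33 (SE 0.07). Pnpt1, a mitochondrial exonuclease, rose by 0.39 (SE 0.12) and lost its call in 4 settings (edgeR adjusted p 0.0781 to 0.0957). The deadenylase gene Parn fell by 0.25 (SE 0.07) and lost its call in 2 settings (adjusted p 0.0620 to 0.0633), and the RNase gene Zc3h12a fell by 0.27 (SE 0.08) and lost its call in 5 (adjusted p 0.0528 to 0.0925). The 3 untested genes were Henmt1, Lin28a and Lin28b, with at most 22 counts in a library.

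Among 13 tested GW182 paralogs and partners of the silencing complex 3 were higher and 1 lower (30.8% called, against 47.3%). Mov10, an RNA helicase that binds Argonaute, stood at 31.7, 30.1 and 32.2 CPM in WT and at 78.2, 71.6 and 62.6 CPM in KO. The groups lay far apart, and Mov10 rose by 1.18 on the log2 scale (SE 0.09, edgeR adjusted p = 5.36e-05). Limd1, a LIM-domain protein that joins Argonaute to the cap-binding complex, rose by 0.56 (SE 0.06). Fmr1, an RNA-binding protein gene, rose by 0.23 (SE 0.08), a call lost in 9 of 14 settings (edgeR adjusted p 0.0521 to 0.129). The untested gene of this list was Wtip, with at most 10 counts in a library.

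Of 19 deadenylation genes 3 were higher and 7 lower, which is 52.6% called, against 47.3% of all tested genes. Both subunits of the PAN2-PAN3 deadenylase fell. Pan2, its catalytic subunit, stood at 65.5, 58.8 and 62.6 CPM in WT and at 34.9, 40.2 and 43.7 CPM in KO, a fall of 0.65 on the log2 scale (SE 0.09, edgeR adjusted p = 8.03e-04). Pan3, its adaptor, fell by 0.52 (SE 0.07) from 84.1 to 58.6 CPM. In the CCR4-NOT complex the nuclease gene Cnot6l fell by 0.62 (SE 0.06) from 175 to 114 CPM, while the subunit gene Cnot11 rose by 0.45 (SE 0.07). Of all pathway genes tested, Pan2 and Cnot6l were the 2 whose pattern over the 6 libraries was nearest to that of Ago2, with root mean square differences of 0.0850 and 0.0941 in log2 CPM centred on the WT mean. By the same measure Dis3l2 and Btg1 were nearest to Tarbp2, at 0.0938 and 0.104. Btg1 itself did not pass the test. The measure takes in the fold change along with the spread of the libraries. Likeness of pattern is thus in part likeness of fold change, and it was not tested.

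Among 15 genes for decapping, decay and translational repression 2 were higher and 2 lower (26.7% called, against 47.3%). Dcp1a, a decapping activator, rose by 0.25 (SE 0.06), and Xrn1, the 5′ to 3′ exonuclease, rose by 0.36 (SE 0.10) and lost its call in 2 settings (edgeR adjusted p 0.0655 to 0.0799). Gigyf1, a translational repressor, fell by 0.30 (SE 0.07). Edc3, a decapping enhancer, fell by 0.21 (SE 0.06), a call lost in 4 settings (adjusted p 0.0639 to 0.0751), and it shares 1284 exonic bases with Clk3 on the opposite strand.

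**Figure D4:**
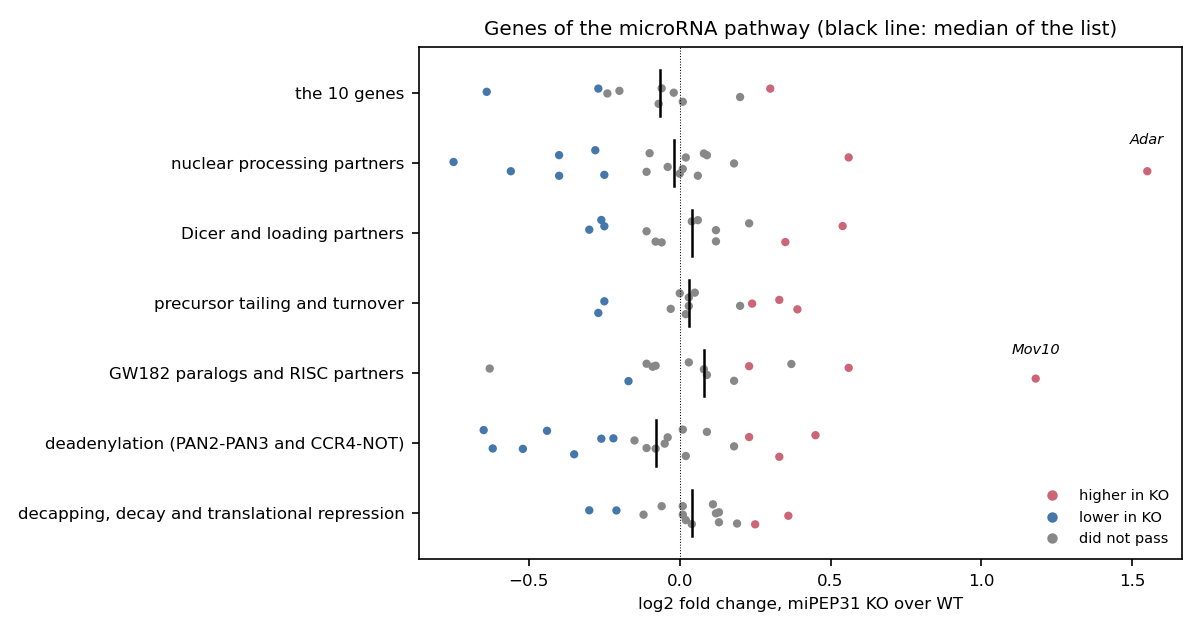
Log2 fold change of KO over WT (horizontal axis) for each tested gene of the 10 and of the 6 pathway lists, coloured by call, with the median of each list as a black line. Adar at 1.55 and Mov10 at 1.18 are the genes past a 2-fold change, and the medians lie between -0.08 and 0.08.

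**Figure D5:**
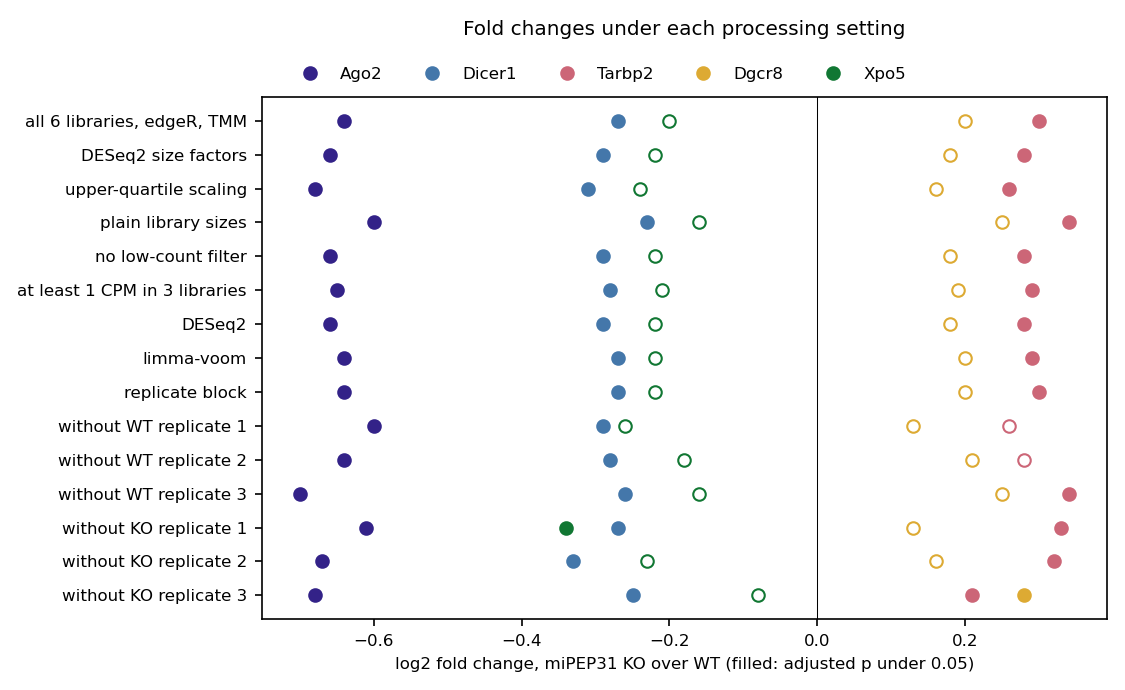
Log2 fold change of KO over WT (horizontal axis) of the 3 called genes and of Dgcr8 and Xpo5 under each of 15 settings (vertical axis), filled where edgeR, DESeq2 or limma-voom gave an adjusted p under 0.05. Ago2 and Dicer1 are filled throughout, Tarbp2 is open without WT replicate 1 or 2, and Dgcr8 and Xpo5 are filled in 1 setting each.

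Library totals ran from 22865487 to 26295776 counts. The KO libraries differed more among themselves than the WT libraries did, with a chi-square per gene between pairs of 14.5 to 39 in KO and 4.97 to 8.21 in WT. The part of this spread in the values of Xpo5, Dgcr8 and Tarbp2 when a library is left out was not tested. The summed level of 10 CD4 T cell markers, led by Cd4 and Cd5, was 2340 to 2454 CPM in WT and 2172 to 2214 CPM in KO, with 8 of 10 lower and Cd5 higher. Markers of B cells, led by Ighm, summed to 184 to 259 CPM in WT and 215 to 483 CPM in KO, with 3 of 8 higher, of CD8 T cells (Cd8b1 and Cd8a) to 12.5 to 15.8 and 15.9 to 36.9 CPM, and of NK cells, led by Eomes and Klrk1, to 11.2 to 13.2 and 22.2 to 30.8 CPM. Of the 6 NK cell markers Eomes and Klrk1 rose and carried most of that sum, while Tyrobp (0.847 CPM in WT and 0.541 in KO) and Klrb1c (0.626 and 0.303) did not pass, and Ncr1 and Klra8 were too low to test. Of the 2 CD8 T cell markers, Cd8a was called higher and Cd8b1 did not pass (edgeR adjusted p = 0.158). In KO library 1 Cd8b1 stood at 8.67 CPM, below all 3 WT libraries (9.75 to 11.3 CPM). Markers of dendritic cells, led by H2-Ab1 and Zbtb46, summed to 72.1 to 74.4 CPM in WT and 42.5 to 95.8 CPM in KO. Clec9a and Cd209a were at 0 throughout. Macrophage markers, led by Cd68 and Lyz2, summed to at most 7.89 CPM, with Adgre1 and Fcgr1 at 0, while neutrophil markers (Ly6g, Mpo) and those of erythroid cells and platelets (Pf4, Hbb-bs) summed to at most 1.44 CPM, with S100a8, S100a9 and Elane at 0. The part of these differences in the values of the 10 genes was not tested.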

How the data were processed

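The file from the authors holds estimated counts for each gene in 3 WT and 3 KO libraries. Trizol RNA and a TruSeq kit were used, per the labels' protocols. Bowtie 0.12.2 and mm8 appear, with no role, among the submitters' processing notes. Counting program, annotation and strand setting: not given in the sources used here. Of the values above 0, 72.2% were whole, and all were rounded before testing. A deposited table of 30 other genes was not used here. The 944 assembled loci with MSTRG IDs (0.903% to 1.56% of counts) were kept. Symbols, positions and exon lengths came from GENCODE M21 (GRCm38) by gene ID.

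Genes passing filterByExpr (minimum count 10) were scaled by TMM and tested with the robust quasi-likelihood test of edgeR 4.0.16 in R 4.3.3, with no covariate. An SE is the fitted log2 fold change divided by the square root of the F statistic. Alternatives used DESeq2 1.42.0, limma 3.58.1 (voom), other scalings and filters, a replicate block, and each library left out. On simulated data (KO against WT, 14387 genes), edgeR called 64% of the 50 genes changed 1.5-fold and 88% of the 50 changed 2-fold. False calls made up 8.81% of 193. Only genes with a mean count over 50 were changed, and far fewer than the 47.3% called in the data. These rates therefore do not carry over to the data, nor to genes as low as Ago4. Within a group, every pair of libraries differed by more than sampling noise (chi-square per gene of 4.97 to 8.21 in WT and 14.5 to 39 in KO).

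The members and lists were chosen with earlier results of these data known. All 10 members are named, with up to 4 called genes of smallest p from each pathway list, the 2 most abundant markers of each other cell type, and the 2 pathway genes nearest in pattern to Tarbp2 and to Ago2. Genes said to be chosen after their values were seen stand outside this rule. A gene named under this rule is not reported here.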

Additional observations from a re-analysis of the deposited data

How the results depend on the processing

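Ago2 (-0.70 to -0.60 leaving out 1 library) and Dicer1 (-0.33 to -0.25) kept direction and call in all 14 alternatives. Leaving out 1 library, log2 fold changes ran from 0.21 to 0.34 for Tarbp2, 0.13 to 0.28 for Dgcr8, -0.34 to -0.08 for Xpo5, -0.49 to 0.04 for Ago4, -0.05 to 0.06 for Ago3, -0.05 to -0.01 for Ago1, -0.12 to -0.01 for Drosha and -0.10 to -0.06 for Tnrc6a. Of the 10 genes, 0 to 2 were then higher (0 without WT replicate 1 or 2, 2 without KO replicate 3) and 2 to 3 lower, and of the pathway genes 9 to 17 higher, with 9 without WT replicate 1, and 15 to 26 lower. Over all tested genes, 2723 to 3655 were then higher and 2419 to 3594 lower, against 3609 and 3197 with all 6 libraries. The number of calls thus moved over the whole table too. The cause was not tested. Ago1 changed sign with plain library sizes (0.02) and Ago3 with upper-quartile scaling (-0.02), with DESeq2 size factors, DESeq2 and no low-count filter (-0.00 each), and without WT replicate 3 (-0.04) or KO replicate 2 (-0.05). Ago4 did without KO replicate 1 (0.04). None of these values passed. Same-numbered libraries did not deviate together over all genes (correlations -0.0156 to 0.00103). The labels do not say whether the numbers pair libraries, and these correlations cannot exclude a pairing. With a replicate block Ago2 (-0.64), Dicer1 (-0.27) and Tarbp2 (0.30) stayed called, and 11 pathway genes were higher and 16 lower. Over all tested genes the block gave 3049 higher and 2687 lower. The KO minus WT differences in the Ago2 share, the summed Argonaute level and the Drosha to Dgcr8 ratio kept their sign in every alternative run. Depth limits Ago4 most.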
